A study of Mus musculus with 11 samples.

Results

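Imprinted genes are transcribed mainly or solely from the copy inherited from 1 parent. The 46 known imprinted genes examined here were taken by gene symbol, and all 46 were among the 23284 genes listed in every file. By textbook assignment they sit at 19 loci, and 20 are expressed from the maternal and 26 from the paternal allele. The allele of origin was not read from these libraries, so the parental labels are background and each level is the sum of both alleles. Imprinting of some members holds only in certain tissues, as for Ube3a in neurons.

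The data were RNA-seq libraries of mouse embryonic stem cells (ESCs), grown on gelatin in serum with leukemia inhibitory factor. Wild-type (WT) cells and cells with the Tet1, Tet2 and Tet3 genes knocked out (TKO) were sampled untreated (0 h) or following exposure to α-amanitin, an RNA polymerase II inhibitor, at 10 µg/ml for 4 h, and each of these 4 groups had 2 libraries of ribosomal RNA-depleted total RNA. The last group was untreated WT cells with 3 libraries of polyA-selected RNA. The sources used here do not say whether the libraries of a group came from separate cultures or how many TKO clones were sequenced, so p-values measure the spread between libraries, and the knockout and the clonal history of the TKO line cannot be told apart.

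At most imprinted loci, differentially methylated regions keep cytosine methylation on 1 parental allele, and a long noncoding RNA or an insulator then sets which neighbouring genes are transcribed from which allele. The Tet enzymes oxidise 5-methylcytosine to 5-hydroxymethylcytosine and take part in erasing imprints in the germ line. Many imprinted genes act on fetal and placental growth, and the paternally and maternally expressed ones often have opposite effects. Imprinted expression is also known to be unstable in cultured ESCs, the Dlk1-Dio3 locus included.

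Levels are given as scaled TPM, the authors' TPM (a read count per transcript length, set to the same total in every library) divided by a size factor for each ribodepleted library. Each log2 change was computed after 1 TPM had been added to every value, so for genes of low level it is smaller than the true change. To be called, a member needed a limma adjusted p below 0.05 together with a change of more than 1.5-fold. Testing was limited to genes averaging more than 1 scaled TPM, which 37 of the 46 members did in the ribodepleted libraries. The other 9 (Kcnq1, Airn, Dlk1, Rtl1, Usp29, Zim1, Snrpn, Magel2 and Nap1l5) were too low and are given as levels. Positions are from GENCODE vM1 on NCBIM37 (mm9), the build of the files.

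The ribodepleted libraries held 25507874 to 29781366 recovered reads and the polyA libraries 72639837 to 82129168. Tet1 fell from 124 to 143 scaled TPM in the WT libraries at 0 h to 30.0 to 30.2 in TKO (log2 change -2.11, limma adjusted p = 1.45e-06), and Tet2 from 48.1 to 55.5 to between 7.17 and 7.73 (log2 change -2.64, adjusted p = 3.25e-07). Tet3 was at 1.39 to 1.51 scaled TPM in all 4 untreated libraries (adjusted p = 0.997), so its transcript level did not separate the genotypes. All 9 ESC markers examined were above 1 scaled TPM in every ribodepleted library, Pou5f1 at 906 scaled TPM or higher in every library. Of the 9, 3 were called lower in TKO at 0 h: Zfp42, Klf4 and Esrrb.

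The first comparison asked how imprinted genes differed between TKO and WT ESCs without treatment. Of the 37 tested members, 6 rose, 6 fell and 25 were not called. Over all 12467 genes tested, 10.5% were called higher and 5.43% lower, against 16.2% of the tested members in each direction. The median log2 change was -0.01 over the members and -0.02 over all genes tested. Among maternally expressed members, 4 of 18 rose (H19, Ascl2, Osbpl5 and Cdkn1c) and 4 fell (Meg3, Rian, Mirg and Grb10). Among paternally expressed members, 2 of 19 rose (Dio3 and Peg10) and 2 fell (Mkrn3 and Impact), so changes in both directions occurred in both classes. Differences between these counts were not tested. Dio3 averaged 0.56 scaled TPM in WT and passed the testing limit only through its TKO libraries.

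**Figure D1:**
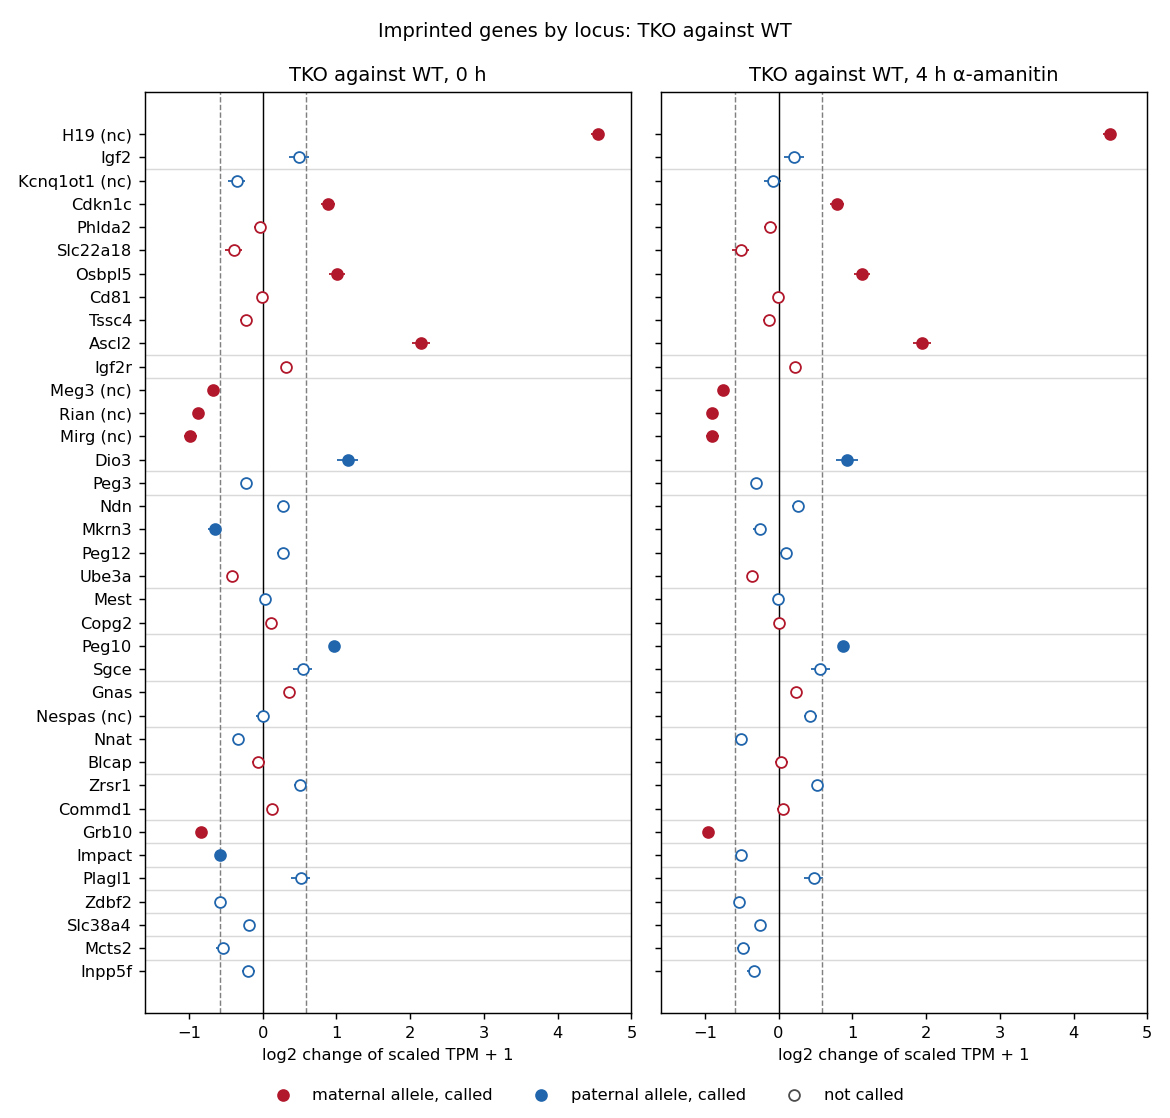
Log2 change (± SE) of the 37 tested imprinted genes in TKO against WT ESCs at 0 h (left) and at 4 h of α-amanitin (right), ordered by locus with grey lines between loci; red is a maternally and blue a paternally expressed gene, filled points were called, (nc) marks a noncoding RNA, and dashed lines mark 1.5-fold. H19 lies at 4.54 and 4.49, far to the right of the other members, while Meg3, Rian and Mirg lie together between -0.98 and -0.68.

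H19, a maternally expressed noncoding RNA that carries Mir675 (chromosome 7, 149761434 to 149764048, minus strand), had the largest change of the members. It was at 7.82 and 8.38 scaled TPM in the WT libraries and at 211 and 210.1 in the TKO libraries. The groups lay far apart, with 295 and 314 recovered reads in WT and 8919 and 7893 in TKO. The ratio of the group means was 26.0, and the log2 change was 4.54 (SE 0.08, limma adjusted p = 1.71e-08). Igf2, the paternally expressed growth factor that shares its enhancers with H19 (chromosome 7, 149836673 to 149852721, minus strand), is usually silent on the allele that makes H19. Igf2 was at 3.30 and 4.22 scaled TPM in WT and at 5.32 and 6.03 in TKO. Its libraries did not overlap, and its log2 change of 0.49 (SE 0.14, adjusted p = 0.016) was under the 1.5-fold limit. Igf2 therefore did not go down where H19 went up. Igf2 was called higher with a pseudocount of 0.1 TPM (0.59), with limma voom on recovered reads (0.60) and without WT replicate 2 at 0 h (0.63).

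The neighbouring Kcnq1ot1 domain holds 9 members, of which 8 were tested. Of these 8, 3 rose and none was called lower. Ascl2, a helix-loop-helix factor needed for the spongiotrophoblast of the placenta (chromosome 7, 150152727 to 150155169, minus strand), was at 1.59 and 1.30 scaled TPM in WT and at 10.2 and 9.50 in TKO. Its 4 values separated the genotypes 6.81-fold in the means (log2 change 2.15, SE 0.12, adjusted p = 3.05e-06). Osbpl5, an oxysterol-binding protein relative (chromosome 7, 150874667 to 150942890, minus strand), was at 1.34 and 1.43 in WT and at 3.82 and 3.80 in TKO (log2 change 1.01, SE 0.11, adjusted p = 8.38e-05). Cdkn1c, the cyclin-dependent kinase inhibitor p57 (chromosome 7, 150644255 to 150646955, minus strand), was at 14.0 and 16.0 in WT and at 27.9 and 29.1 in TKO (log2 change 0.88, SE 0.09, adjusted p = 7.60e-05). All 3 genes are maternally expressed, but so is every member listed for the domain other than Kcnq1ot1, so their shared class follows from the list.

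Kcnq1ot1, the paternally expressed noncoding RNA that silences the domain on its own chromosome, was at 9.56 and 8.11 scaled TPM in WT and at 6.63 and 6.72 in TKO. Its libraries did not overlap, but the log2 change of -0.35 (SE 0.11, adjusted p = 0.027) was under 1.5-fold. Kcnq1, the potassium channel gene in which Kcnq1ot1 lies in antisense, was nearly absent, at 0.09 and 0.09 scaled TPM in WT and at 0.08 and 0.11 in TKO, with 2 to 9 recovered reads in any ribodepleted library. The other tested maternally expressed genes of the domain were not called. Phlda2, which restrains placental growth, had a log2 change of -0.04 and the tetraspanin gene Cd81 one of -0.01, while the transporter gene Slc22a18 was at 1.83 and 1.67 scaled TPM in WT against 0.95 and 1.24 in TKO (log2 change -0.40, adjusted p = 0.019). Slc22a18 was called lower at 0 h with limma voom on recovered reads (-0.69) and with a pseudocount of 0.1 TPM (-0.64), and at 4 h under 4 alternatives that kept the fold limit. Members of the same domain therefore rose, stayed within the limits or had negative changes.

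At the Dlk1-Dio3 locus on chromosome 12, the 3 maternally expressed noncoding RNAs fell together. Dio3, the only paternally expressed gene of the locus that was tested, rose, but it passed the testing limit only through its TKO libraries. Meg3 (110779211 to 110809936, plus strand), the first of the noncoding RNAs along the chromosome, was at 18.7 and 16.4 scaled TPM in WT and at 10.6 and 10.7 in TKO (log2 change -0.68, SE 0.07, adjusted p = 7.76e-05). Rian, which carries box C/D small nucleolar RNAs (110842155 to 110899919, plus strand), was at 206 and 203 in WT and at 109 and 112 in TKO (log2 change -0.88, SE 0.04, adjusted p = 9.90e-07). Mirg, a host of microRNAs (110973191 to 110987665, plus strand), was at 35.7 and 38.2 in WT and at 17.4 and 19.1 in TKO (log2 change -0.98, SE 0.09, adjusted p = 4.54e-05). For each of the 3, both TKO libraries lay below both WT libraries, by 1.66-fold in the means for Meg3, 1.85-fold for Rian and 2.02-fold for Mirg. Since these RNAs are thought to be processed from a common transcript, they are not independent observations of the locus.

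The paternally expressed genes of that locus were low. Dio3, the deiodinase that inactivates thyroid hormone (111517278 to 111519307, plus strand), was at 0.33 and 0.78 scaled TPM in WT and at 2.35 and 2.50 in TKO (log2 change 1.15, SE 0.15, adjusted p = 0.00023), on 9 and 21 recovered reads in WT and 71 and 67 in TKO. Dlk1, a Notch-ligand relative, was not tested and stood at 0.30 and 0.51 scaled TPM in WT and at 0.79 and 0.65 in TKO. Rtl1, a retrotransposon-derived gene, was at 0.11 scaled TPM or less in all 4 untreated libraries. Dlk1 had 21 to 62 recovered reads in the ribodepleted libraries, which limits what can be said of it. A paternally expressed gene as low in WT as these could be tested only where it was higher in TKO, so the calls cannot set the 2 parental classes of this locus against each other.

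The annotated starts of members that moved differed in CpG content. Meg3, Rian, Mirg and Dio3 are from 1 locus. The first 3 are thought to share a transcript, so the Rian and Mirg windows need not be promoters. RefSeq promoter windows on GRCm38.p6 (250 bases before and 50 after an annotated start) were found for 38 of the 46 members. None was used for H19, Peg10, Cdkn1c, Sgce, Kcnq1, Nespas, Rtl1 or Impact. The windows held a median of 15 CpG dinucleotides over 57 member windows and 7 over all 32851 windows. The 250 bases before the start are shown for the 3 noncoding RNAs that fell together, for the 2 genes that rose most among those with a window, and for the CpG-rich Grb10 start, in lower case with each CpG in capitals, 5′ to 3′ on the gene's strand.
Meg3 (chr12:109540746-109540995, plus strand): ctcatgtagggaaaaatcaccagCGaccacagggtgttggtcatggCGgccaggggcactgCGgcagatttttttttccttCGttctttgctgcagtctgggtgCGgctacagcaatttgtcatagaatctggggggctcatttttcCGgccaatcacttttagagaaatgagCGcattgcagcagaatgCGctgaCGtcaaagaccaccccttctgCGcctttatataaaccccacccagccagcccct
Rian (chr12:109603695-109603944, plus strand): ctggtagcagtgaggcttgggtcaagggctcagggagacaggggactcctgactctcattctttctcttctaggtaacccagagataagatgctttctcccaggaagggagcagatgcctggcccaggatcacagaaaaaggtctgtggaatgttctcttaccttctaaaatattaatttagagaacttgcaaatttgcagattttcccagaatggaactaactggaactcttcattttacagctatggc
Mirg (chr12:109734731-109734980, plus strand): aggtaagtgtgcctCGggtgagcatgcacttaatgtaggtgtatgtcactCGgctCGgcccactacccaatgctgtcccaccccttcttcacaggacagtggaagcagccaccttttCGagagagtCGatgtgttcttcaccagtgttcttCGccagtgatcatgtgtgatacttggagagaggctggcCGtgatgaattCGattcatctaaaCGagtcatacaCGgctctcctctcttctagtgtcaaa
Dio3 (chr12:110278980-110279229, plus strand): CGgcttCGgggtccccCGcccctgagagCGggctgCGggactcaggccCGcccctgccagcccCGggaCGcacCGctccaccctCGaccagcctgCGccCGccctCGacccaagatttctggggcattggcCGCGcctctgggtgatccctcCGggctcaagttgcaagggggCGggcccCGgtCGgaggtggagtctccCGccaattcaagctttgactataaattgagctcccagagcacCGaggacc
Ascl2 (chr7:142969265-142969514, minus strand): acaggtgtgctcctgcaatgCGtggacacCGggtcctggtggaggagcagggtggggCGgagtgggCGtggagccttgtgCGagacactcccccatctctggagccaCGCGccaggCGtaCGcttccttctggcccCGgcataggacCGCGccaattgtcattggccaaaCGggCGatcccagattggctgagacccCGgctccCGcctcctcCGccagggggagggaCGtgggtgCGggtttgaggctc
Grb10 (chr11:12037421-12037670, minus strand): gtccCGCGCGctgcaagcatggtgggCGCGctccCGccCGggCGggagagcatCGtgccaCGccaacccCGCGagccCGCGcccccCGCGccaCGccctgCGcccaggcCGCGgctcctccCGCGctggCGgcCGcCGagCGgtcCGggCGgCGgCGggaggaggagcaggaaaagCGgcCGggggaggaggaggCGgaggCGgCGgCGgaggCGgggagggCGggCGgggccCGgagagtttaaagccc
The full windows held 13 CpGs at this Meg3 start, 0 at Rian, 10 at Mirg, 25 at Dio3, 23 at Ascl2 and 45 at Grb10, and 98.1% of all windows held fewer than that Grb10 window. Starts of 1 gene differed as well, with 9 CpGs at a second Grb10 start, 1 at a second Meg3 start, and 21, 1 and 16 at 3 starts of Osbpl5, which rose. The hexamer TGCCGC, which the imprint-protecting factor ZFP57 binds when methylated, was searched on both strands (as TGCCGC and GCGGCA). It was in 15 of 57 member windows (26.3%) and in 11.6% of all windows, and among those shown in the full windows of Meg3 and Grb10. The hexamer holds a CpG, and these shares were not matched for CpG content, which was higher in member windows. Some member windows also overlap, as at Mest. Its share was 20% of 5 windows of members called higher, 28.6% of 7 called lower and 25.7% of 35 tested but not called. Such matches describe letters only. Methylation was not measured here.

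Igf2r, the maternally expressed receptor that removes IGF2 (chromosome 17, 12875272 to 12962530, minus strand), was at 36.4 and 35.5 scaled TPM in WT and at 44.8 and 44.9 in TKO. The difference was small but beyond the spread (log2 change 0.31, SE 0.04, adjusted p = 0.00041), and it was under 1.5-fold. Airn, the paternally expressed noncoding RNA that runs antisense through Igf2r (chromosome 17, 12934177 to 13052988, plus strand), was at 0.29 and 0.29 scaled TPM in WT and at 1.30 and 1.11 in TKO. That corresponds to 9 and 9 recovered reads in WT and 46 and 35 in TKO, and Airn was below the limit for testing. With every gene above 0 tested, its log2 change was 0.78 (SE 0.14, adjusted p = 0.0053). Both RNAs of this antisense pair were thus higher in the TKO libraries.

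Peg10, a retrotransposon-derived gene needed for placenta formation and paternally expressed (chromosome 6, 4697306 to 4710514, plus strand), was at 71.0 and 67.7 scaled TPM in WT and at 134 and 138 in TKO (log2 change 0.96, SE 0.05, adjusted p = 1.39e-06). Sgce, the sarcoglycan gene that starts beside it on the opposite strand (4624350 to 4697204), was at 2.77 and 3.54 in WT and at 4.36 and 5.75 in TKO. The change of Sgce had the same sign as that of its neighbour but stayed under 1.5-fold (log2 change 0.54, SE 0.13, adjusted p = 0.0065), and it was called under 5 of the alternatives that kept the fold limit. Grb10, an adaptor that restrains growth signals of the insulin receptor (chromosome 11, 11830511 to 11938686, minus strand), was at 61.3 and 59.2 scaled TPM in WT and at 33.5 and 33.3 in TKO (log2 change -0.83, SE 0.05, adjusted p = 4.94e-06). It lay 1.80-fold lower in the means, with no overlap.

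In the Snrpn domain of chromosome 7, the region of the Prader-Willi and Angelman syndromes in people, 1 of 4 tested members was called. Mkrn3, a RING finger gene (69562479 to 69565039, minus strand), was at 10.9 and 10.5 scaled TPM in WT and at 6.93 and 5.98 in TKO (log2 change -0.65, SE 0.09, adjusted p = 0.00027). Its call was lost without TKO replicate 2 at 0 h (-0.56), with deposited TPM (-0.57) and with a pseudocount of 5 TPM (-0.46). The ubiquitin ligase gene Ube3a, also lower at a log2 change of -0.42 (adjusted p = 0.00032), and Ndn and Peg12, each at 0.27, stayed under 1.5-fold. Snrpn itself was at 0.31 scaled TPM or less in every ribodepleted library, with 1 to 10 reads. Snrpn shares its transcript with Snurf, and reads lying in both can be left out by gene counting, so its level is uncertain.

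Impact, an inhibitor of the GCN2 stress kinase (chromosome 18, 13130761 to 13151457, plus strand), was at 188 and 186 scaled TPM in WT and at 122 and 126 in TKO. Its log2 change of -0.59 (SE 0.04, adjusted p = 1.09e-05) was just past the limit, and the call was lost in 8 alternatives, 4 of which left out 1 library each (-0.58 to -0.57). Zdbf2 at -0.57 and Mcts2 at -0.55 lay just inside the limit, as did Sgce at 0.54, Plagl1 at 0.51 and Zrsr1 at 0.50 on the other side. In all, 14 of the 37 tested members had an adjusted p under 0.05 with a positive and 15 with a negative change when no fold limit was set. Of all 12467 genes tested, 3471 and 3518 did. The 3 members with the smallest changes were Nespas, Cd81 and Mest. Nespas, a noncoding RNA of the Gnas locus, was at 42.1 and 35.9 scaled TPM in WT against 38.3 and 39.6 in TKO. Cd81 was at 211 and 223 in WT against 212 and 218 in TKO. Mest, a hydrolase-like gene expressed from the paternal allele, was at 111 and 118 in WT and at 116 and 118 in TKO. The groups of all 3 overlapped.

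The remaining members were not called or not tested. Zrsr1, a splicing factor gene, was at 8.11 and 7.75 scaled TPM in WT and at 11.4 and 11.8 in TKO, and Gnas, which encodes the stimulatory G protein alpha subunit, was at 28.1 and 27.9 in WT and at 36.0 and 36.2 in TKO. Peg3, a zinc finger gene, was at 45.3 and 41.2 in WT and at 35.6 and 37.7 in TKO, and Zdbf2 was at 37.2 and 34.0 in WT against 23.3 and 23.8 in TKO. These 4 had groups that did not overlap and changes under 1.5-fold. Such separation does not single them out, since the groups overlapped for only 5 of the 37 tested members. Its share over all genes was not counted. Plagl1, a zinc finger regulator of growth, was low, at 0.55 and 0.70 in WT against 1.41 and 1.23 in TKO. It passed the testing limit only through its TKO libraries. Of the others tested, Nnat (log2 change -0.33), Tssc4 (-0.23) and the amino acid transporter gene Slc38a4 (-0.19) had an adjusted p under 0.05, and Copg2, Blcap, Commd1 and Inpp5f did not. Usp29, Zim1 and Magel2 were untested, and no library of theirs was above 1.07 scaled TPM at 0 h.

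**Figure D2:**
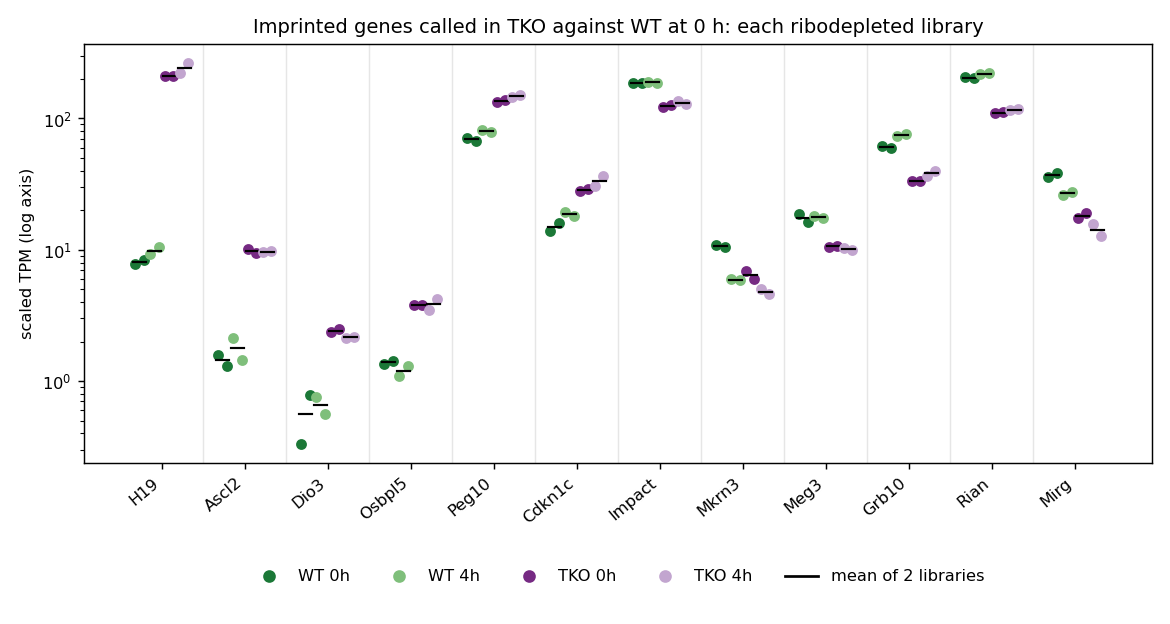
Scaled TPM (log axis) of the 12 imprinted genes called at 0 h in each of the 8 ribodepleted libraries, with points for libraries and bars for the mean of 2. For H19, Ascl2, Dio3, Osbpl5, Peg10 and Cdkn1c all 4 TKO libraries lie above all 4 WT libraries, and for Impact, Meg3, Grb10, Rian and Mirg all 4 lie below; for Mkrn3 the WT libraries at 4 h reach down to 5.84, into the range of the TKO libraries.

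Ascl2, Peg10 and H19 are abundant in trophoblast cells, so trophoblast markers were read beside them. These members were picked because they rose. Phlda2, which restrains placental growth, did not rise with them, with means of 87.6 scaled TPM in WT and 85.4 in TKO at 0 h. Of 8 markers, 4 were tested, and 3 of these were called higher in TKO at 0 h: Krt7 (log2 change 3.31), Hand1 (1.63) and Gcm1 (1.42). The fourth, Eomes, was at 2.18 scaled TPM in both WT libraries and at 2.42 and 2.93 in TKO (log2 change 0.21, adjusted p = 0.16 at 0 h; 0.42, adjusted p = 0.012 at 4 h) and was not called. The summed deposited TPM of all 8 markers lay between 5.73 and 6.87 in the WT libraries and between 43.2 and 45.1 in TKO, where Krt7 was at 28.7 and 31.7 scaled TPM. Of the untested markers, Cdx2 was at 0.72 to 0.74 scaled TPM in WT and 0.97 to 1.15 in TKO, Elf5 at 0.25 or less, and Tpbpa and Prl3d1 at 0.08 or less in every library. Hand1 and Gcm1 averaged 0.27 and 0.74 in WT at 0 h, so they passed the testing limit only through their TKO libraries. A marker at such WT levels could be tested only where it was higher in TKO. For fibroblasts, 1 of 5 tested markers was called higher (Col1a2), and Col1a1 stayed below 4 scaled TPM in every library. For primitive endoderm, 2 of 3 tested markers were called lower (Lama1 and Gata4), while Dab2 had a positive change under 1.5-fold (log2 change 0.47, adjusted p = 0.0070). Gata4 averaged 1.95 in WT and 0.93 in TKO at 0 h, and passed the testing limit only through its WT libraries. Of the 4 tested neural markers 1 was lower (Olig2). The 1 tested mesoderm marker, T, was called lower at 4 h only. The part of other cell types in the imprinted gene changes was not tested, and in bulk RNA more cells of a type and more RNA per cell cannot be told apart.

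Genes that keep or write imprints were read as a list of 22, of which 21 were tested. At 0 h none was called higher, and 3 were called lower: Tet2, Tet1 and Ehmt2, a histone H3 lysine 9 methyltransferase (scaled TPM of 130 ± 3.29 for WT against 78.9 ± 0.70 for TKO, SD, n = 2, with a log2 change of -0.72 and an adjusted p = 1.42e-05). Zfp57, which guards methylated imprints, averaged 144 ± 0.39 for WT against 130 ± 4.16 for TKO (SD, n = 2, with a log2 change of -0.15, adjusted p = 0.027), and its cofactor Trim28 changed by -0.23 (adjusted p = 0.012). The list's median log2 change was -0.22 against -0.02 for all genes tested. Tet1 and Tet2, the targets of the knockout, count towards both this median and the 3 called lower. Ehmt2 was the only call outside them. A further 35 imprinted genes outside the 46 were examined, with 16 tested. Of these, 3 rose (Herc3 at 1.11, Atp10a at 0.95 and Pon2 at 0.89) and Cobl fell (-0.76). That is 18.8% higher and 6.25% lower, against 10.5% and 5.43% of all 12467 genes tested. With 16 genes the difference in shares rests on few calls and was not tested. Pon2 lies in the Peg10 domain, where Casd1 (-0.15) and Ppp1r9a (-0.05) were not called, and Cobl lies beside Grb10. Herc3 hosts the member Nap1l5, which was at 0.29 and 0.59 scaled TPM in WT and at 0.82 and 0.62 in TKO.

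After 4 h of α-amanitin the comparison of TKO with WT was repeated in separate libraries of both genotypes. Of the 37 members, 6 were called higher and 4 lower, where 11.0% and 5.82% of all genes tested were. The 10 calls were all among the 12 of 0 h and had the same direction. Mkrn3 (log2 change -0.26, adjusted p = 0.028) and Impact (-0.50, adjusted p = 2.27e-05) were no longer past 1.5-fold. The share of calls that were higher over all genes at 4 h depended on the scaling, with 65.5% here, 81.1% with deposited TPM and 55.1% after quantile normalisation.

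H19 was at 9.32 and 10.4 scaled TPM in WT and at 223 and 264 in TKO at 4 h, a log2 change of 4.49 (SE 0.08, adjusted p = 2.29e-08). Ascl2 was at 2.14 and 1.44 in WT and at 9.61 and 9.75 in TKO (log2 change 1.95, adjusted p = 4.97e-06), Osbpl5 at 1.10 and 1.30 against 3.45 and 4.26 (1.14, adjusted p = 3.96e-05). Cdkn1c was at 19.5 and 18.1 in WT and at 30.4 and 36.4 in TKO, with a log2 change of 0.79. The maternally expressed genes that were high in TKO at 0 h were thus high at 4 h as well. Peg10 was at 82.3 and 78.7 in WT and at 145 and 151 in TKO (log2 change 0.87), and Dio3 at 0.76 and 0.56 against 2.12 and 2.18 (0.93).

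Of the RNAs that fell, Grb10 was at 73.2 and 76.7 scaled TPM in WT and at 36.6 and 39.6 in TKO at 4 h (log2 change -0.96, SE 0.05, adjusted p = 2.36e-06). Rian was at 219 and 221 in WT and at 116 and 118 in TKO (log2 change -0.91), and Meg3 at 18.2 and 17.5 against 10.3 and 10.0 (-0.75). Mirg was at 26.3 and 27.7 in WT and at 15.6 and 12.6 in TKO (log2 change -0.90, adjusted p = 6.70e-05). The groups did not overlap for any of the 4. Airn was at 0.24 and 0.34 in WT and at 1.24 and 0.66 in TKO. Igf2 was at 4.43 and 5.81 in WT and at 5.50 and 6.60 in TKO, so its groups overlapped at 4 h (log2 change 0.21, adjusted p = 0.23), and Dlk1 was at 0.53 in both WT libraries and at 0.95 and 0.88 in TKO. Igf2r (40.5 and 40.6 in WT, 46.9 and 48.3 in TKO) and Kcnq1ot1 (5.77 and 5.63, 6.10 and 4.67) were not called, and Kcnq1 (0.10 and 0.05, 0.22 and 0.07) was not tested.

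The α-amanitin comparison asks which transcripts were lost fastest when transcription was blocked. TPM is relative within a library, so a loss shared by all transcripts cannot be seen, and a positive change means a smaller loss than that of the typical transcript. In WT, 0 members were called higher and 2 lower, against 0.0882% and 2.01% of all genes tested. Nespas went from 42.1 and 35.9 scaled TPM at 0 h to 20.8 and 21.6 at 4 h (log2 change -0.84, SE 0.09, adjusted p = 0.0022). Mkrn3 went from 10.9 and 10.5 to 6.04 and 5.84 (log2 change -0.75, SE 0.09, adjusted p = 0.0027). Both 4 h libraries lay below both 0 h libraries for each.

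Other noncoding RNAs of the clusters differed among themselves. Kcnq1ot1 went from 9.56 and 8.11 scaled TPM to 5.77 and 5.63 in WT (log2 change -0.55, SE 0.11, adjusted p = 0.0096) and Mirg from 35.7 and 38.2 to 26.3 and 27.7 (log2 change -0.44, SE 0.09, adjusted p = 0.011), both under the 1.5-fold limit. Kcnq1ot1 was called lower with deposited TPM (-0.69), with a pseudocount of 0.1 TPM (-0.62), with limma voom on recovered reads (-0.63) and without WT replicate 2 at 0 h (-0.66). H19, Meg3 and Rian had log2 changes of 0.26, 0.02 and 0.11. Of the 3 noncoding RNAs of the Dlk1-Dio3 locus, only Mirg had an adjusted p under 0.05 in this comparison, and differences among the 3 were not tested. The sign for Meg3 and Rian turned with the scaling, since in deposited TPM Rian went from 212 and 202 to 195 and 203. Grb10 (0.31, adjusted p = 0.0064) and Cdkn1c (0.31, adjusted p = 0.031) were among 12 of 37 members with a positive change at an adjusted p under 0.05 and no fold limit. Of all 12467 genes tested, 2730 had such a change. The median over the members was 0.10 and over all genes tested 0.03.

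**Figure D3:**
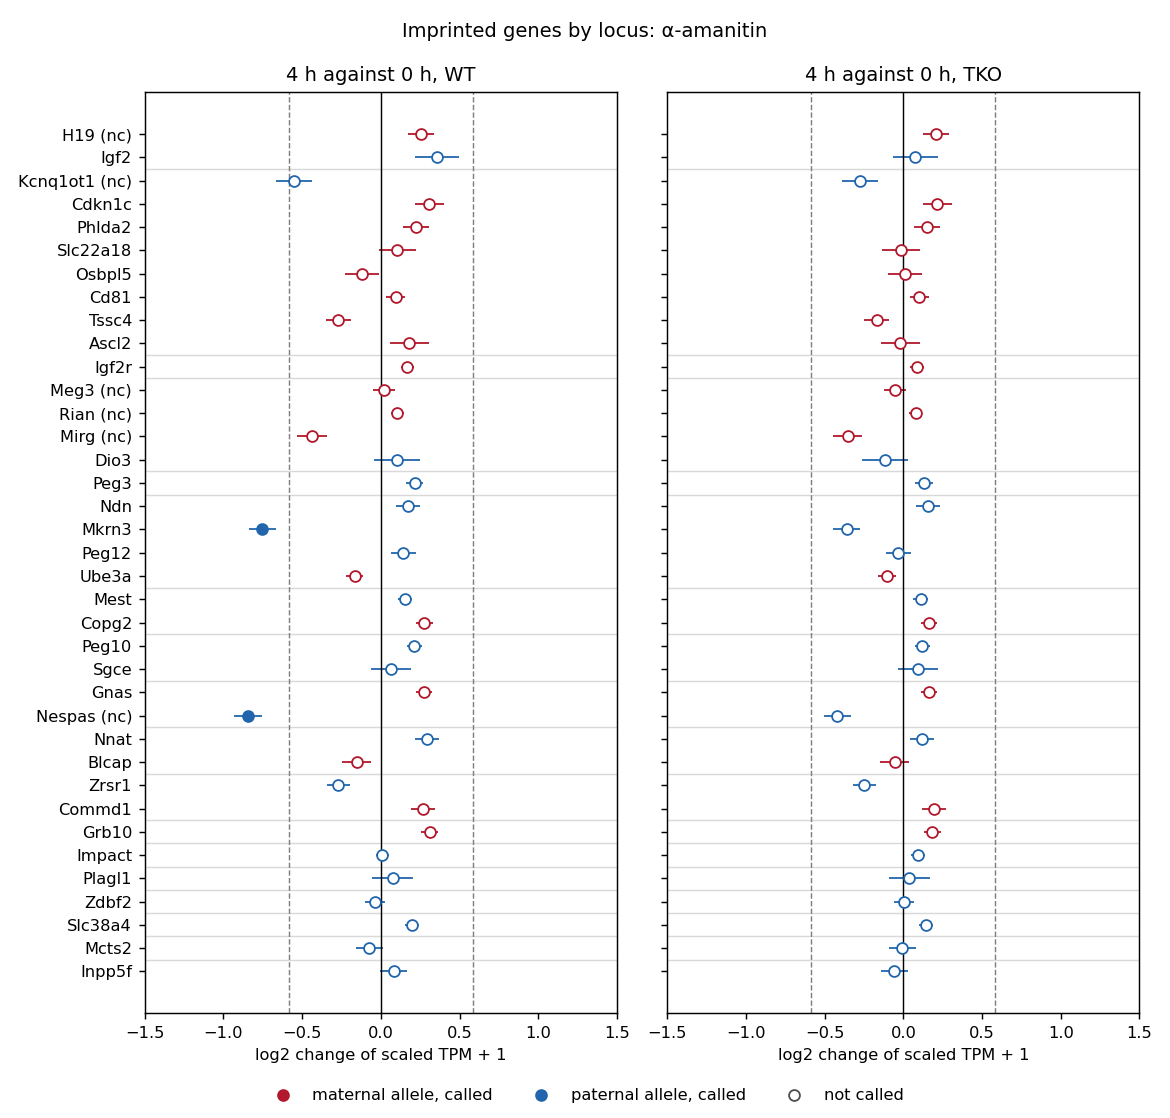
Log2 change (± SE) of the 37 tested imprinted genes at 4 h of α-amanitin against 0 h in WT (left) and TKO (right) ESCs, with symbols as in the plot of TKO against WT. Nespas and Mkrn3 lie past the 1.5-fold line in WT, at -0.84 and -0.75, and at -0.42 and -0.36 in TKO.

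In TKO no member was called in either direction after α-amanitin, where 0% of all genes were called higher and 0.160% lower. At an unadjusted p under 0.05, 15 of the 37 members had a change, as did 3110 of all 12467 genes tested. Nespas was at 38.3 and 39.6 scaled TPM at 0 h and 31.1 and 26.8 at 4 h (log2 change -0.42, SE 0.09, adjusted p = 0.090). Mkrn3 had a log2 change of -0.36 (SE 0.09, adjusted p = 0.11), Mirg one of -0.35 and Kcnq1ot1 one of -0.27. These 4 RNAs had the most negative changes of the tested members in both genotypes. The difference between the genotypes was tested as an interaction and was called for 0 of the members and 0% of all genes by limma. At an unadjusted limma p under 0.05 there were 2 of the 37 members and 938 of all 12467 genes tested. Limma voom on recovered reads also called 0 members. Nespas (interaction 0.43, SE 0.12, adjusted p = 0.66) and Mkrn3 (0.40, SE 0.12, adjusted p = 0.66) had the largest interaction estimates. A call in WT without a call in TKO is therefore not shown to differ between them. Leaving out TKO replicate 1 at 4 h raised the number of all genes called lower in TKO from 20 to 130, and no member was among them.

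The last comparison set WT polyA libraries beside WT ribodepleted libraries at 0 h. RNA selection and experiment differ together there and cannot be told apart. Deposited TPM are used for the levels. Of 37 members tested in that fit, 9 were called higher in polyA RNA and 12 lower, where 18.7% and 16.4% of all 12478 genes tested were. The fit had its own filter, so these were not the same 37. Nap1l5 and Magel2 were tested here, and Dio3 and Plagl1 were not. Of the 7 noncoding RNAs, H19, Kcnq1ot1, Nespas, Rian and Mirg were called lower, Meg3 was not called and Airn was not tested.

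Kcnq1ot1 was at 0.28, 0.31 and 0.25 TPM in the polyA libraries and at 9.86 and 8.04 in the ribodepleted ones (log2 change -3.02, SE 0.09, adjusted p = 1.50e-08). Nespas was at 3.97, 4.63 and 4.01 against 43.5 and 35.6 (log2 change -3.05, SE 0.08, adjusted p = 8.27e-09), and H19 at 0.43, 0.43 and 0.39 against 8.06 and 8.31 (-2.76, SE 0.08). No polyA library came near a ribodepleted one for these RNAs. H19 and Kcnq1ot1 averaged 0.42 and 0.28 TPM in polyA RNA, so they passed the testing limit only through their ribodepleted libraries. Rian (114, 121 and 112 against 212 and 202) and Mirg (15.7, 18.2 and 16.4 against 36.8 and 37.9) had smaller deficits, at -0.93 and -1.21. Meg3 was higher in polyA RNA, at 25.6, 27.9 and 23.7 TPM against 19.3 and 16.3 (log2 change 0.41, adjusted p = 0.00069), under 1.5-fold. Airn was at 0.10, 0.05 and 0.08 TPM against 0.29 and 0.28, on 4 to 8 reads in the polyA libraries. Igf2r was at 32.8 ± 2.66 against 36.4 ± 1.64, Dlk1 at 0.90 ± 0.06 against 0.41 ± 0.14 and Kcnq1 at 0.20 ± 0.03 against 0.09 (SD, n = 3 and 2).

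Protein-coding members went both ways. Peg10 was the highest, at 362, 357 and 335 TPM in polyA RNA against 73.3 and 67.2 (log2 change 2.20, SE 0.04, adjusted p = 1.29e-09), and Cdkn1c was at 59.7, 59.4 and 58.9 against 14.5 and 15.9 (1.80, SE 0.06). Ascl2, Slc22a18, Sgce, Zrsr1, Igf2, Gnas and Nap1l5 were also called higher. Nap1l5 averaged 1.51 TPM in polyA RNA and 0.44 in ribodepleted RNA, so it passed the testing limit only through its polyA libraries. Grb10 was at 10.6, 10.5 and 10.7 TPM against 63.2 and 58.7 (-2.52, SE 0.04, adjusted p = 7.98e-10), and Peg3, Peg12, Ube3a, Mest, Impact and Nnat were also called lower.

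**Figure D4:**
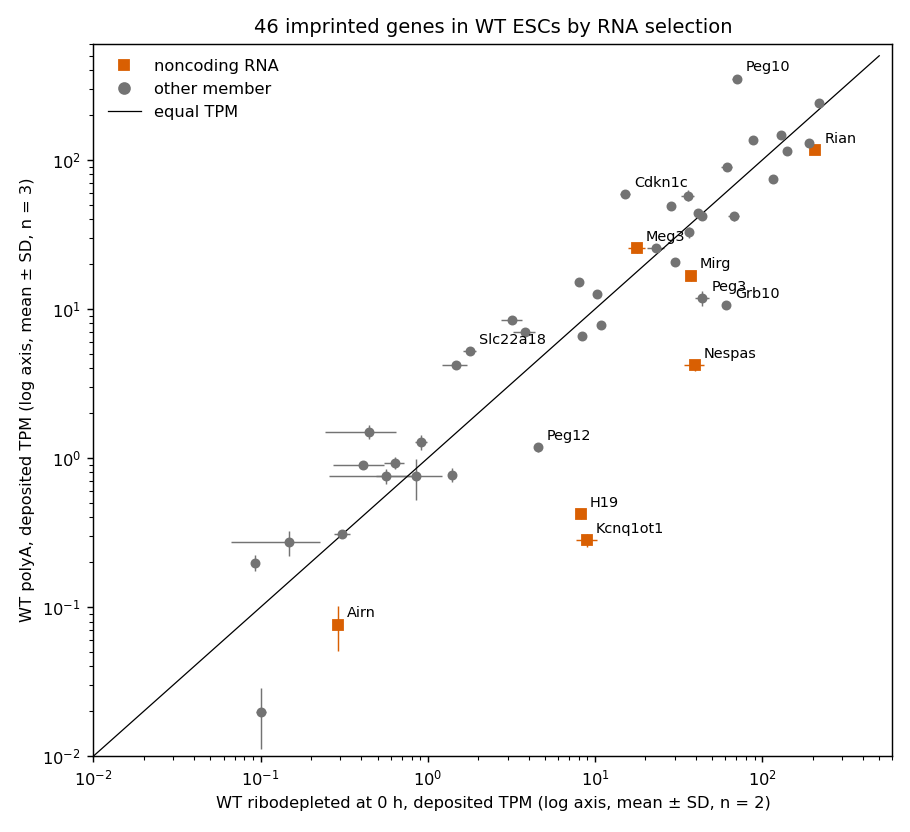
Mean deposited TPM (± SD, both axes log) of the 46 imprinted genes in WT polyA libraries (n = 3) against WT ribodepleted libraries at 0 h (n = 2), with squares for noncoding RNAs and a line at equal TPM. Kcnq1ot1, H19 and Nespas lie far below the line, Meg3 lies above it, and Peg10 is the highest member in polyA RNA at a mean of 351.

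Over the 5 groups the members spanned a wide range. In WT ribodepleted RNA at 0 h, 6 members had a mean above 100 TPM (deposited) and 11 one below 1, and in TKO at 0 h 8 were above 100 and 8 below 1. Cd81, Rian, Impact, Slc38a4, Commd1 and Mest were the 6 in WT. In TKO at 0 h the ranking changed at the top through H19 and Peg10, which joined that group at 228 ± 0.50 and 147 ± 3.35 TPM (SD, n = 2). Overlapping genes need care. Mest and Copg2 share 23.0% and 20.2% of their exon bases on opposite strands, and Nespas shares 31.4% of its exon bases with Gnas. The libraries were made with strand information, but whether the counting used it is not given in the sources used here.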

How the data were processed

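RNA-seq libraries of WT and TKO mouse ESCs were analysed, 2 for each of the 4 ribodepleted groups and 3 for WT polyA. The deposited values are TPM per gene. Per the study's methods, the authors removed low-complexity reads with AfterQC and ribosomal and transfer RNA reads with Bowtie2, trimmed with Trimmomatic, mapped with STAR to mm9 with RefSeq genes and counted with HTSeq, and the submitters' processing notes also name FastQC. Neither tool versions nor whether HTSeq counted by strand are given in the sources used here.

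Each library's TPM were scaled by a median-of-ratios size factor and analysed as log2(scaled TPM + 1) for genes with a mean scaled TPM above 1, with limma 3.58.1 in R 4.3.3 (moderated test with a mean-variance trend, two-sided, Benjamini-Hochberg adjustment over all genes tested). One fit held the 8 ribodepleted libraries (4 residual degrees of freedom) and another the WT polyA and WT 0 h libraries (3). A call needed an adjusted p under 0.05 and over 1.5-fold. Whole reads could be recovered from the TPM for all 23284 genes, which gave the depths. They were used for depth and for the voom alternative. Low counts limit precision, and intervals cover the spread between libraries only.

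Values by library are given for members called in TKO against WT, for noncoding RNAs of the clusters and their partners, and for the 3 members with the smallest change. Further members were named after their values were seen. The members and the gene lists (ESC, trophoblast, primitive endoderm, mesoderm, neural and fibroblast markers, imprint maintenance genes, other imprinted genes) were chosen with earlier results of these data known. Libraries with the same replicate number shared little deviation, with correlations from -0.0443 to 0.119. Whether the numbers pair the libraries is not known. No pair of libraries was a repeat. The fits were tested on simulated data. Alternatives changed scaling, pseudocount, filter, fold limit, test, variance model, samples, block and each replicate.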

Additional observations from a re-analysis of the deposited data

How the results depend on the processing

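Without a fold limit the called members numbered 14 higher and 15 lower in TKO against WT at 0 h, 13 and 14 at 4 h, 12 and 7 after α-amanitin in WT, and 14 and 18 in polyA RNA, of 37 tested. In the same order, all genes numbered 3471 and 3518, 3625 and 3779, and 2730 and 1965 of 12467, and 5012 and 5092 of 12478 in polyA RNA. A pseudocount of 5 TPM left 3 lower at 0 h, 1 lower after α-amanitin in WT and 4 higher in polyA RNA. It also removed the higher calls of Dio3 and Osbpl5 at 0 h and at 4 h. Deposited TPM without scaling gave 4 lower after α-amanitin in WT. That scaling moved the median of all genes to 0.14 in TKO against WT at 4 h and to -0.11 after α-amanitin in WT. Leaving out 1 replicate gave 6 to 8 higher and 5 to 7 lower at 0 h, 6 to 8 higher and 4 to 6 lower at 4 h, 2 to 3 lower after α-amanitin in WT, and 8 to 9 higher and 11 to 12 lower in polyA RNA. A replicate block gave 6 higher and 6 lower at 0 h, 6 and 4 at 4 h, 0 and 2 after α-amanitin in WT, 0 in TKO and for the interaction, and 10 and 12 in polyA RNA. The numbers are not known to pair the libraries. For 27 log2 changes (those of called members in TKO against WT and after α-amanitin in WT, and those of Igf2, Igf2r and Kcnq1ot1 at 0 h), 486 of 509 values under the alternatives kept their direction and their side of the threshold, and none of these 509 reversed. Outside these 27, Sgce, Zdbf2, Plagl1, Slc22a18, Mcts2 and Zrsr1 in TKO against WT, and Kcnq1ot1 and Mirg after α-amanitin in WT, were called under at least 1 alternative that kept the fold limit, and Meg3 and Rian after α-amanitin in WT, neither called, changed sign with deposited TPM. Impact, Mkrn3, Dio3, Osbpl5 and Meg3 lost a call under at least 1 alternative. The cause was not tested.

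Over all genes, TKO against WT gave 550 higher and 354 lower at 0 h and 582 and 416 at 4 h with a pseudocount of 5 TPM, 715 and 479, then 752 and 540, with a mean above 5, and 3471 and 3518, then 3625 and 3779, without a fold limit. At 4 h deposited TPM gave 1927 and 449, and quantile normalisation 1057 and 862. After α-amanitin in WT the 251 lower became 585 with deposited TPM, 148 with a pseudocount of 5 TPM and 137 without WT replicate 1 at 4 h, and in TKO the 20 lower became 0 without a variance trend. Limma voom on recovered reads called 1579 higher and 869 lower at 0 h and 1742 and 892 at 4 h in TKO against WT, 34 and 382 after α-amanitin in WT, 5 and 48 in TKO, and 2647 and 2326 in polyA RNA. The interaction gave up to 8 genes, without TKO replicate 2 at 4 h. In polyA RNA a pseudocount of 5 TPM gave 1500 higher and 1358 lower, and no fold limit 5012 and 5092. With 2 libraries a group, small changes of members near 1 TPM were not well resolved.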
